A study of Mus musculus with 27 samples.

Results

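The genes described here encode the core of the desmosome, the button-like junction that holds neighbouring epithelial cells together. They are 10 genes of the 28145 on the array: the desmogleins Dsg1a, Dsg2 and Dsg3, the desmocollins Dsc1, Dsc2 and Dsc3, the armadillo proteins Jup, Pkp1 and Pkp3, and the plakin Dsp. They were chosen by name, so that every probe other than control spots that carried 1 of these symbols was used, 20 of 41174 probes in all, and the probes of a gene were averaged. The samples fell into 9 groups of 3, each hybridised to an Agilent array read in 2 colours, 27 arrays in all. Whole esophagi came from wild-type (WT) mice at embryonic days 11.5 and 15.5 (E11.5 and E15.5), at birth (P0) and at postnatal day 7 (P7), and from Nrf2-/-, Keap1-/- and Nrf2-/-Keap1-/- mice at P7. The adult samples, WT and Nrf2-/- at 8 weeks, were esophageal epithelium and not whole esophagus. Nrf2 (gene symbol Nfe2l2) is the transcription factor that switches on antioxidant and detoxifying genes, and Keap1 is the protein that holds it inactive. Wild-type mice were C57BL/6J, both mutations were carried in every cell of mice on a C57BL background, no agent was given, and RNA was taken from individual esophagi. Sample RNA was labelled with Cy5 on every array and hybridised against mouse reference RNA labelled with Cy3, with no exchange of dyes. A level is given below as the log2 ratio of Cy5 to Cy3, averaged over the probes of a gene. Dsg2 had 5 probes, Dsp 4, Dsc2 3 and Dsg3 2. Dsg1a, Dsc1, Dsc3, Pkp1, Pkp3 and Jup had 1 probe each, so no second probe checks their values. The ratio compares 1 gene between samples and does not rank different genes against each other. Because RNA came from pieces of tissue, fewer cells of a type and less RNA per cell cannot be told apart.

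In a desmosome, desmogleins and desmocollins are cadherins that span the membrane and bind their partners on the next cell. Jup (plakoglobin) and the plakophilins Pkp1 and Pkp3 bind the tails of these cadherins inside the cell, and Dsp (desmoplakin) links that plaque to keratin filaments. Stratified squamous epithelia such as that of the esophagus change their desmosomal cadherins with depth: Dsg2, Dsg3, Dsc2 and Dsc3 are used widely or in the lower layers, and Dsg1 and Dsc1 mark the upper, differentiating layers. The mouse has several Dsg1 genes, and Dsg1a is the copy followed here.

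For 2 of the 10 genes, Dsp and Jup, RefSeq sequences on the GRCm38.p6 assembly gave the 250 bases upstream of the start of transcription. The other 8 genes had no entry among the upstream sequences used. Dsp and Jup, the link to keratin and its plaque partner, were both called in 4 comparisons below. These were E11.5 to P7, P7 to adult, Keap1-/- esophagi against WT, and Nrf2-/-Keap1-/- against Keap1-/- esophagi. Dsc1 was called in the same comparisons. Capitals mark GC boxes, GGGCGG on either strand, and each sequence is written 5' to 3' on the strand of its gene. The Dsp sequence lay at chr13:38151044-38151293 on the plus strand and the Jup sequence at chr11:100397791-100398040 on the minus strand.
Dsp: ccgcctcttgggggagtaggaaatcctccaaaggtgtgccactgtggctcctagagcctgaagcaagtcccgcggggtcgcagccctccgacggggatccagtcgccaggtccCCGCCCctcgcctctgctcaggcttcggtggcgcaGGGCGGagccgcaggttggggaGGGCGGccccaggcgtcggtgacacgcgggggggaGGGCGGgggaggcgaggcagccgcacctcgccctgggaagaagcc
Jup: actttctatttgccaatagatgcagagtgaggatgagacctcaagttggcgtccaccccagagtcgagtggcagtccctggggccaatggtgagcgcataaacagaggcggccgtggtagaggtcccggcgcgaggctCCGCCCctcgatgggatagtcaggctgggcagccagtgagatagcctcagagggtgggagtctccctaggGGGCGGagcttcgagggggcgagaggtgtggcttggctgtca
The Dsp sequence was 72.4% G and C and held 4 GC boxes, and the Jup sequence was 62.0% G and C and held 2. GC boxes were present in 32.7% of the 32851 upstream sequences of the same length. The core of the antioxidant response element that Nrf2 binds (TGACNNNGC, found in 10.2% of all upstream sequences), the AP-1 site (TGANTCA, 6.7%) and the core bound by grainyhead-like factors (AACNNGTT, 3.6%) were searched on both strands, and these letters were in neither window.

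On the 27 arrays the median Cy5 intensity lay between 81.8 and 226, and between 58.3% and 68.7% of probes were well above background. Nfe2l2 checked the labels of the Nrf2 mutants: its level was -3.92 to -3.82 in Nrf2-/- and -4.14 to -4.08 in Nrf2-/-Keap1-/- esophagi at P7 against -0.55 to 0.00 in WT, and -3.64 to -2.85 against 0.81 to 1.27 in adults. The level of Keap1, read from 1 probe, was -0.27 to 0.64 in Keap1-/- esophagi and 0.42 to 1.00 in WT at P7, and these groups overlapped. In Nrf2-/-Keap1-/- esophagi it was -0.50 to -0.19, below all WT P7 arrays, but the change was not called by limma (-0.99, adjusted p = 0.0793). Whether the probe lies in the deleted part was not tested. Nqo1 and Gclc, antioxidant genes that Nrf2 drives, were higher in Keap1-/- esophagi by 4.89 and 6.04 (log2). Libraries stood apart in 3 ways that touch the results. The array labelled E11.5 replicate 3 correlated at 0.97 with E15.5 replicates 2 and 3 and at 0.83 and 0.77 with its own group, while E15.5 replicate 1 stood at 0.95 and 0.92 with E11.5 replicates 1 and 2 and at 0.80 and 0.81 with the other E15.5 arrays. The 3 Keap1-/- arrays shared a slide and a scan with no other sample and had the lowest median Cy3 intensities (115 to 147), so genotype and scan cannot be told apart for them. The 3 WT P7 arrays also had a slide of their own, in the scan that held the Nrf2-/- and Nrf2-/-Keap1-/- P7 arrays. Slide and group thus cannot be told apart in comparisons with WT P7. WT adult replicate 3 was scanned with Nrf2-/- adult replicates 1 and 2, apart from the other WT adults. Nrf2-/- adult replicate 3 had a scan of its own.

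**Figure D1:**
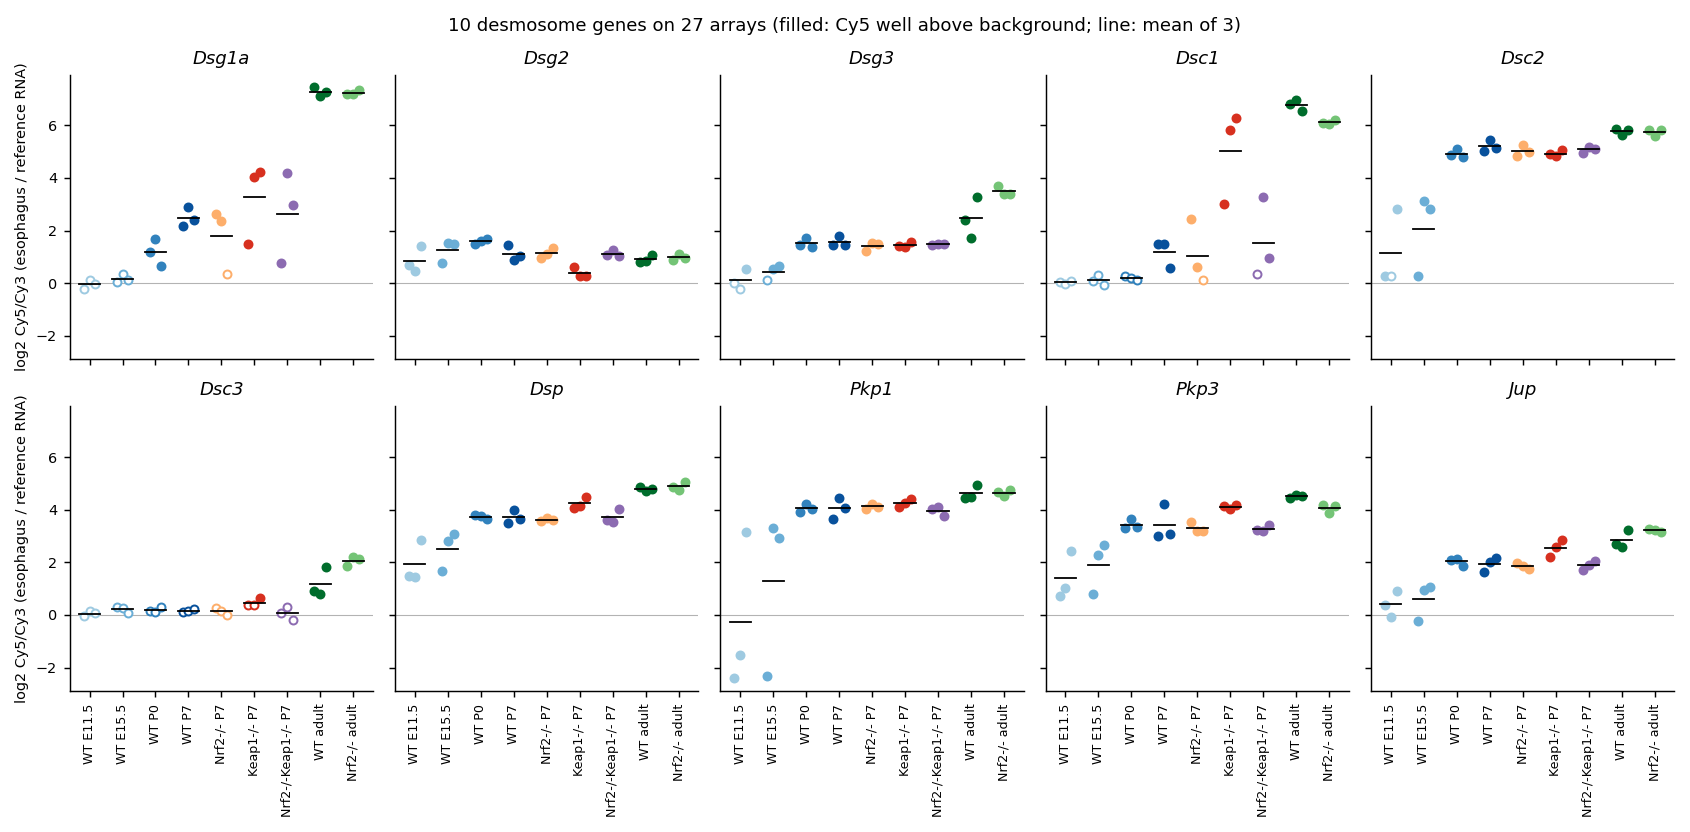
Level of each of the 10 genes on every array, as the log2 ratio of Cy5 (esophagus) to Cy3 (reference RNA), with 1 point per array, the mean of 3 as a line and open points where no probe was well above background in Cy5. Dsg1a and Dsc1 climb from near 0 in embryos to about 7 in adults, Dsg2 stays between 0.27 and 1.66, and the 3 arrays of a group lie far apart for Dsc2 and Pkp1 at E11.5 and E15.5.

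From E11.5 to P7, while the esophageal lining turns from a simple columnar into a stratified squamous epithelium, 7 of the 9 desmosome genes tested rose and none fell. A gene counts as called where limma gave it a p of 0.05 or lower after Benjamini-Hochberg adjustment over all genes tested; 30.2% of the 19704 genes tested were called in this comparison, 16.8% as higher. The median change of the 9 genes was 1.79 on the log2 scale, against -0.01 over all genes tested. On all 3 P7 arrays the 7 genes and Pkp1 were above all 3 E11.5 arrays, which held in this direction for 21.8% of all genes tested. The number called was 5 to 8 when single arrays were left out. With the processed signals of the scanner software the low genes rose more steeply, Dsg1a by 6.39, Dsc1 by 4.62 and Dsg3 by 2.65, and with median centring less, by 1.69, 0.77 and 0.63, with calls in both settings.

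The cadherins rose in different steps. Dsc2, the desmocollin of most epithelia, was at 0.28, 0.29 and 2.83 at E11.5, at 0.29, 3.10 and 2.82 at E15.5, at 4.89, 5.09 and 4.79 at P0, and at 5.01, 5.46 and 5.14 at P7. All 6 arrays after birth were above all 6 from embryos, and the embryonic arrays fell into a low and a middle set that crossed the labels. The change from E11.5 to P7 was 4.07 ± 0.77 (log2 ± SE, adjusted p = 0.00351), and that from E15.5 to P0 was 2.85 ± 0.77 (adjusted p = 0.0261), a call kept in 2 of the 6 runs without a single array. Without E11.5 replicate 3 and E15.5 replicate 1, the change of Dsc2 was 2.68 from E11.5 to E15.5 and 1.96 from E15.5 to P0, so the order of the steps turns on these arrays. Its 3 probes gave 3.38, 4.33 and 4.49 from E11.5 to P7. Dsg3, the desmoglein of the lower layers, was at 0.01, -0.23 and 0.54 at E11.5, 0.11, 0.52 and 0.67 at E15.5, 1.45, 1.71 and 1.39 at P0, and 1.44, 1.79 and 1.45 at P7. It rose by 1.08 ± 0.21 from E15.5 to P0 (adjusted p = 0.00616) and its change from P0 to P7 was 0.04.

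Dsg1a and Dsc1, the cadherins of the upper layers, were detected later. Dsg1a was not well above background on any embryonic array. It was at 1.17, 1.69 and 0.66 at P0 and at 2.19, 2.89 and 2.38 at P7, and so was called at both steps. It was at least 1.75-fold higher at P0 than at E15.5, where it was at background (adjusted p = 0.0189, kept in 3 of the 6 runs without a single array), and it rose by 1.32 ± 0.25 from P0 to P7 (adjusted p = 0.0233). Dsc1 was not well above background until P7, when it was at 1.51, 1.50 and 0.59 after 0.29, 0.20 and 0.11 at P0. It was at least 1.82-fold higher at P7 than at P0 (adjusted p = 0.0400). Both bounds are set against the dimmest signal that counted as above background. On the same terms Dsg1a at P7 was at least 4.13-fold higher than at E11.5, and Dsc1 at least 1.90-fold. Dsc1 and Dsg1a were the 2 genes called from P0 to P7, a step in which 2.43% of all genes were called. The count was 0 without WT P0 replicate 1 or 3 or WT P7 replicate 2 or 3, and 1 without either of the other 2 arrays, and the call of Dsc1 was lost in all 3 runs in which it could be tested. Dsc3 was not well above background on any of the 12 WT arrays up to P7 and was not tested there.

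Dsg2, the desmoglein shared with simple epithelia, did not follow the others. It was at 0.68, 0.46 and 1.39 at E11.5, 0.75, 1.54 and 1.47 at E15.5, 1.48, 1.61 and 1.66 at P0, and 1.46, 0.87 and 1.03 at P7. Its mean was highest at P0 (1.58 ± 0.09, SD, n = 3). No change of this average over 5 probes passed the test between time points (0.28 from E11.5 to P7, adjusted p = 0.475). On its own, probe A_52_P88091 was called lower by limma from P0 to P7 (-1.42, adjusted p = 0.015). It was above background on 1 of 3 arrays at P7. Probe A_52_P601757 had group means of 2.75, 3.59, 4.39 and 3.40 from E11.5 to P7, with no change called.

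Among the plaque genes, Jup, Pkp3 and Dsp rose from E11.5 to P7, and the changes of all 4 from P0 to P7 lay between -0.10 and 0.00. Jup was at 0.38, -0.06 and 0.92 at E11.5, -0.22, 0.94 and 1.05 at E15.5, 2.10, 2.12 and 1.88 at P0, and 1.63, 2.02 and 2.15 at P7. The change from E15.5 to P0 was 1.44 ± 0.33 (adjusted p = 0.0132), and that from E11.5 to P7 was 1.52 ± 0.33 (adjusted p = 0.00731). Pkp3, which was at 0.70, 1.02 and 2.44 at E11.5 and at 2.98, 4.20 and 3.06 at P7, rose by 2.03 ± 0.55 over the whole phase (adjusted p = 0.0191), a call kept in 3 of the 6 runs without a single array. Pkp1, a plakophilin of stratified epithelia, had the widest spread of the 10 genes at E11.5 and at E15.5. It was at -2.40, -1.52 and 3.15 at E11.5, at -2.34, 3.32 and 2.92 at E15.5 and between 3.65 and 4.46 on the 6 arrays of P0 and P7, and its change of 4.31 ± 1.55 missed the threshold (adjusted p = 0.0586). Dsp, the anchor of keratin, was at 1.47, 1.45 and 2.84 at E11.5, 1.67, 2.79 and 3.08 at E15.5, 3.80, 3.75 and 3.65 at P0, and 3.49, 3.995 and 3.63 at P7. It rose by 1.79 ± 0.41 from E11.5 to P7 (adjusted p = 0.00867).

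Step by step, E11.5 and E15.5 parted 0 of the 9 genes, and limma called 0 of all genes (0% of 19704; at an unadjusted p of 0.05, 322 genes and 0 of the 9). From E15.5 to P0, 4 of 9 rose (Dsg1a, Dsg3, Dsc2 and Jup), against 19.7% of all genes called and 11.3% called as higher; Dsp (1.22, adjusted p = 0.0595), Pkp3 (1.51, adjusted p = 0.0783) and Pkp1 (2.76, adjusted p = 0.245) had changes of like or larger size that did not pass. With the replicate number as a block, Dsp and Pkp3 passed there too (adjusted p = 0.0419 and 0.0449), which made 6. Without WT P0 replicate 2 the count was 1, without WT P0 replicate 1 or E15.5 replicate 1 it was 2, and without E15.5 replicate 3 it was 5.

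The 2 embryonic arrays that resembled the other label decide what the first step shows. On the 6 embryonic arrays, Pkp1, Dsc2, Pkp3, Dsp, Dsg2, Jup and Dsg3 were each lower on E11.5 replicates 1 and 2 and E15.5 replicate 1 than on E11.5 replicate 3 and E15.5 replicates 2 and 3. E11.5 replicate 3 and E15.5 replicate 1 were singled out by their likeness to the other label in these same data. Parting of the remaining arrays was thus favoured in advance, and adjusted p values without these 2 arrays are descriptive only. With both left out, 2678 of all genes were called in either direction from E11.5 to E15.5. With every array kept it was 0 of 19704. The number tested without the 2 arrays is not given here, so no share is set beside the count. Of the 9 desmosome genes, 7 were called without them, all as higher at E15.5. The largest of these changes were 5.08 for Pkp1 (adjusted p = 2.29e-05), 2.68 for Dsc2 (adjusted p = 2.68e-05) and 1.60 for Pkp3 (adjusted p = 0.0194), and the smallest was 0.70 for Dsg3 (adjusted p = 0.0264). Dsg1a (0.28) and Dsc1 (0.10) stayed uncalled. From E11.5 to P7 all 9 genes were called, among 7855 of all genes in either direction, against 5947 of 19704 (30.2%) with every array kept. Dsg2 had the smallest change there (0.55, adjusted p = 0.0289). In the same setting Dsg1a lost its call from E15.5 to P0 (0.94, adjusted p = 0.0530) and Dsp gained one (0.80, adjusted p = 0.00848). Over the 4 time points together, the F-test of limma called 7 of the 9 genes, beside 30% of all genes, and not Dsg2 (adjusted p = 0.209) or Pkp1 (adjusted p = 0.110). The mean level of the suprabasal squamous markers Krt4, Krt13, Sprr3 and Ivl moved with these genes. It went from -0.15 to 2.31 at E11.5 up to 4.22 to 4.73 at P7 (1 of the 4 and all 4 above background). Other marker lists moved too, with skeletal muscle at -0.17 to 2.18 and 4.98 to 5.53 and smooth muscle at 1.38 to 3.97 and 3.76 to 4.30. General epithelium was at 0.55 to 1.86 and 2.12 to 2.49, and basal markers at 1.44 to 2.91 and 3.08 to 3.54. Their part in the result was not tested. All other values given here keep both arrays under their deposited labels.

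**Figure D2:**
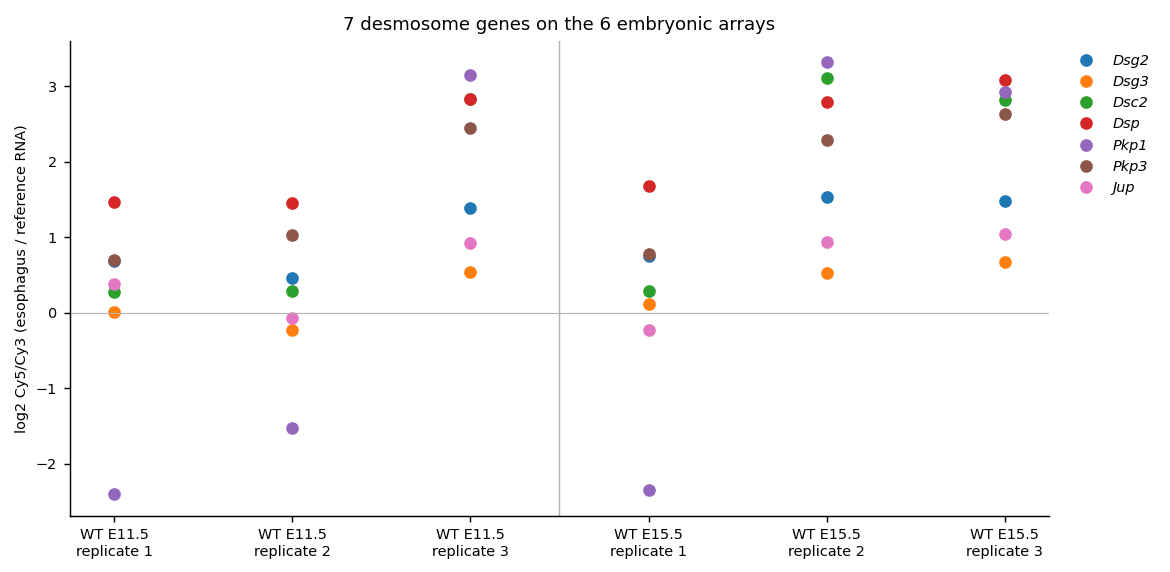
Level (log2 ratio of Cy5 to Cy3) of the 7 desmosome genes detected in embryos on each of the 6 embryonic arrays, 1 colour per gene, with the E11.5 and E15.5 labels parted by a grey line. E11.5 replicate 3 looks like E15.5 replicates 2 and 3, and E15.5 replicate 1 looks like E11.5 replicates 1 and 2, most clearly for Pkp1 (-2.34 on E15.5 replicate 1 against 3.15 on E11.5 replicate 3).

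From WT P7 to WT adult, 7 of 10 desmosome genes rose and none fell, and the cadherins of the upper layers rose most. The step compares whole esophagus with isolated epithelium, so age and tissue fraction cannot be told apart, and 43% of the 18009 genes tested were called (20% as higher). Dsc1 was at 6.80, 6.97 and 6.54 in adults after 1.51, 1.50 and 0.59 at P7, a rise of 5.57 ± 0.26 or 47.6-fold (adjusted p = 1.34e-05). Dsg1a was at 7.44, 7.10 and 7.26 after 2.19, 2.89 and 2.38, a rise of 4.78 ± 0.20 or 27.4-fold (adjusted p = 8.32e-06). Both were read from 1 probe each, and both were called with every single array left out. With the processed signals of the scanner software their rises were smaller, 2.30 for Dsc1 and 1.36 for Dsg1a, and that of Dsc3 was larger (3.63), all called. Dsc3, the desmocollin of the lower layers, was well above background on all 3 adult arrays, at 0.90, 0.79 and 1.84, after 0 arrays of the earlier WT groups, at least 1.86-fold above P7 (adjusted p = 0.0185). Within the first scan alone, which leaves WT adult replicate 3 out, its change was 0.69 in place of 1.02, and its call was lost without WT P7 replicate 1 (adjusted p = 0.0503). Dsc2 was at 5.87, 5.62 and 5.83 in adults and rose by 0.57 ± 0.15 (adjusted p = 0.0205), a change that turned to -0.17 with scale normalization between arrays. Its call was also lost in 4 of the 6 runs without a single array.

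Dsp was at 4.87, 4.71 and 4.79 in adults and rose by 1.09 ± 0.16 (adjusted p = 0.00143), Pkp3 was at 4.45, 4.56 and 4.50 and rose by 1.09 ± 0.31 (adjusted p = 0.0250), and Jup was at 2.70, 2.60 and 3.23 and rose by 0.91 ± 0.21 (adjusted p = 0.0117). Dsp and Jup kept their calls without any single array, and the call of Pkp3 was lost in 5 of the 6 such runs. Probes of a gene differed in this step: those of Dsp gave 0.86, 2.27, 0.21 and 1.00, and those of Dsg3 gave 1.59 and 0.22. The count of genes called was 4 without WT P7 replicate 1 or WT adult replicate 1 or 3. Scale normalization ended the calls of Dsp (0.53, adjusted p = 0.0835) and Pkp3 (0.57, adjusted p = 0.279). With each spot's own local background subtracted, an alternative added once the data had been seen, the values of Dsp, Jup, Dsc2 and Dsg3 turned to -0.20, -0.061, -1.33 and -0.66, none called, Dsc3 (0.16, adjusted p = 0.629) and Pkp3 (0.83, adjusted p = 0.142) lost their calls, while Dsg1a (2.85) and Dsc1 (4.03) were still called. Dsg3 had a change of 0.91 (adjusted p = 0.0763), Pkp1 0.58 (adjusted p = 0.0820) and Dsg2 -0.20 (adjusted p = 0.382). Cell type markers moved with the step. The mean level of 4 skeletal muscle genes (Acta1, Ckm, Myh3 and Tnnt3) was 4.98 to 5.53 at P7 with all 4 above background. In adult epithelium it was 0.43 to 1.69 with 3 of 4. The mean of 4 fibroblast genes (Col1a1, Col3a1, Pdgfra and Dcn) was 0.80 to 1.15 and -0.97 to -0.67. Smooth muscle genes averaged 3.76 to 4.30 and 3.08 to 3.39, and blood cell genes (Ptprc, Hba-a1, Hbb-b1 and Alas2) 2.75 to 3.12 and 0.78 to 1.09. General epithelial genes averaged 2.12 to 2.49 and 0.23 to 0.47, but their members differed. Group means were lower in adults for Krt8 (0.62 to -4.14), Cldn7 (3.60 to -2.25), Krt18 (-1.68 to -3.23) and Epcam (1.12 to 0.31). Cdh1 overlapped (6.54 to 6.42) and Esrp1 was higher (3.96 to 5.17). The suprabasal mean was higher in adults (4.22 to 4.73, then 4.999 to 5.51), and the basal markers Krt5, Krt14, Krt15 and Trp63 overlapped (3.08 to 3.54, then 3.39 to 3.84). The part of these markers in the desmosome values was not tested.

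**Figure D3:**
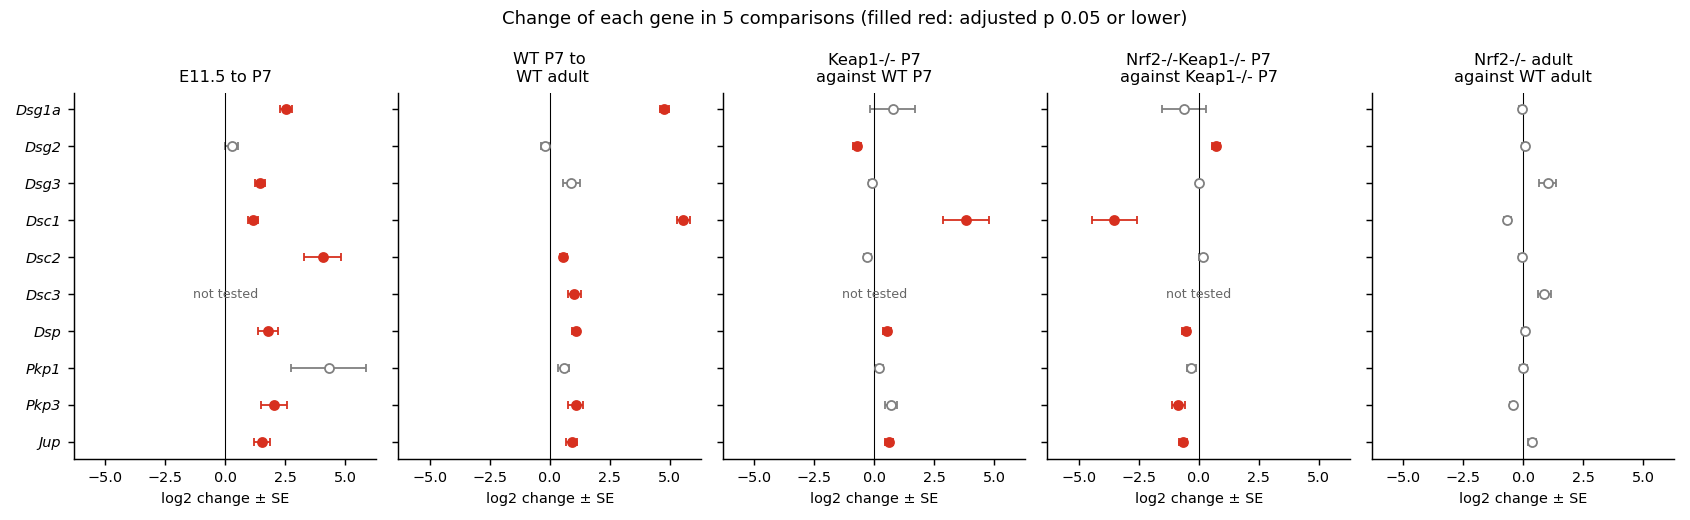
Log2 change of each desmosome gene (point) with its standard error (bar) in 5 comparisons, filled red where the adjusted p was 0.05 or lower. Changes lie to the right of 0 from E11.5 to P7 and, apart from Dsg2, from P7 to adult, Keap1-/- esophagi part Dsc1 (3.83) from Dsg2 (-0.73), the double mutant mirrors both, and no gene is filled for Nrf2-/- adults.

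In Keap1-/- esophagi at P7, in which Nrf2 is no longer held inactive, Dsc1, Jup and Dsp were higher and Dsg2 was lower than in WT, 4 of 9 genes tested. Over all genes 33.3% of 19063 were called (15.4% higher, 17.9% lower), so the count of desmosome genes called is not far from the background. The median change of the 9 genes was 0.53 (log2), against -0.02 over all genes tested. Dsc1 was at 2.99, 5.83 and 6.26 in Keap1-/- and at 1.51, 1.50 and 0.59 in WT, and all Keap1-/- arrays were above all WT arrays, as for 20.7% of all genes. The change was 3.83 ± 0.95 or 14.2-fold (adjusted p = 0.0109), and it was called with every single array left out (3.21 to 4.85). With the processed signals of the scanner software it was 1.94 and not called (adjusted p = 0.320). Keap1-/- replicates 2 and 3, at 5.83 and 6.26, came close to the adult range of 6.54 to 6.97. Dsg1a, its partner in the upper layers, was at 1.51, 4.05 and 4.21 and overlapped WT, and its change was 0.77 ± 0.93 (adjusted p = 0.563), which turned to -0.60 with the processed signals.

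Dsg2 was the desmosome gene that fell. It was at 0.62, 0.27 and 0.29 in Keap1-/- esophagi and at 1.46, 0.87 and 1.03 in WT, with no overlap (24.4% of all genes were lower in this way), and its change was -0.73 ± 0.16, or 1.65-fold lower (adjusted p = 0.00647). The call held without any single array (-0.85 to -0.56), and the processed signals of the scanner software gave -1.91. Of its 5 probes, 2 were well above background on all 6 arrays: A_52_P601757, with a change of -1.81 (adjusted p = 0.00162), and A_51_P249848, with -0.57 (adjusted p = 0.0554). A_52_P559779 (adjusted p = 0.0404) and A_52_P88091 (adjusted p = 0.0142) were dimmer in Keap1-/- too, but were above background on 0 of 3 Keap1-/- arrays, and A_52_P88091 on 1 of 3 WT arrays, so the size of their change is not measured. Probe A_52_P96159, which newer annotation gives to another locus, had group means between -0.29 and 0.02 and was above background on 1 of the 27 arrays.

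Jup was at 2.21, 2.59 and 2.83 in Keap1-/- esophagi, above the WT arrays at 1.63, 2.02 and 2.15, and the change was 0.61 ± 0.18 (adjusted p = 0.0226). Dsp was at 4.08, 4.14 and 4.50 against 3.49, 3.995 and 3.63 (0.53 ± 0.17, adjusted p = 0.0331). These groups did not overlap, but both calls were weak: that of Jup was kept in 3 and that of Dsp in 2 of the 6 runs without a single array. The probes of Dsp disagreed. A_51_P201884 was higher by 1.65 (adjusted p = 0.00103), whereas A_51_P101460, A_52_P242544 and A_52_P549815 gave 0.24, 0.33 and -0.08, none of which was called. Under the scanner software's processed signals the change of Dsp was 0.02 (adjusted p = 0.954), that of Jup was still called, and Dsc2 was called lower (-0.61, adjusted p = 0.0344). Pkp3 was at 4.14, 4.03 and 4.18 against 2.98, 4.20 and 3.06, and its change of 0.70 missed the threshold (adjusted p = 0.0642); WT replicate 2 lay at the level of the mutants, and without WT P7 replicate 2 the gene was called (1.09, adjusted p = 0.000267). Dsg3 (-0.11), Dsc2 (-0.28) and Pkp1 (0.20) did not pass. Without Keap1-/- replicate 2 or 3 or WT P7 replicate 1, the count of genes called was 2.

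**Figure D4:**
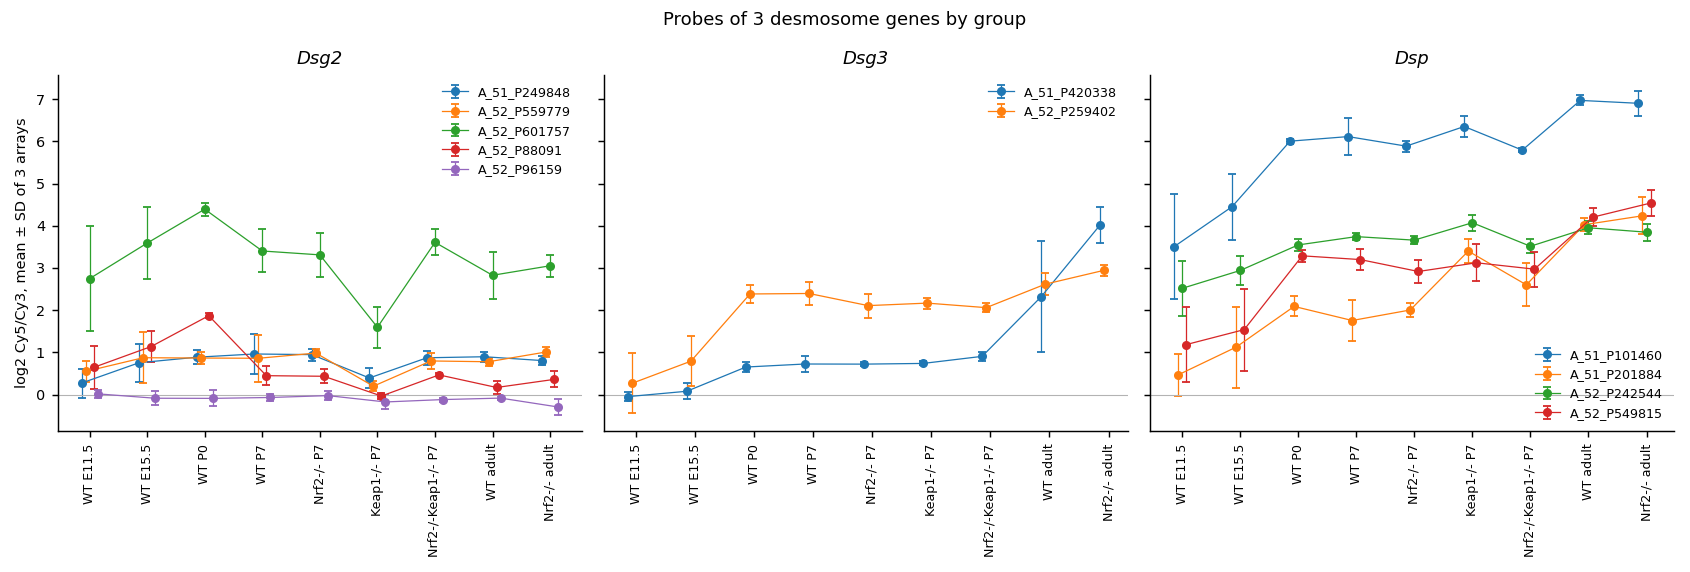
Level (log2 ratio of Cy5 to Cy3, mean ± SD of 3 arrays) of every probe of Dsg2, Dsg3 and Dsp in the 9 groups, 1 colour per probe; lines only join the points of a probe. The Dsg2 probes other than A_52_P96159 are lower in Keap1-/- than in WT esophagi at P7, where A_52_P559779 and A_52_P88091 are at background, Dsp probe A_51_P201884 rises there while the other 3 stay near WT, and in adults Dsg3 probe A_51_P420338 rises while A_52_P259402 stays between 2.62 and 2.95.

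Cell type markers moved with the Keap1-/- genotype. The 6 general epithelial markers (Epcam, Cdh1, Cldn7, Esrp1, Krt8 and Krt18) were all detected in both groups. Their mean level was 2.12 to 2.49 in WT and -0.10 to 0.22 in Keap1-/- esophagi at P7. The members differed. Group means were lower for Krt8 (0.62 to -3.49), Cldn7 (3.60 to -1.46), Krt18 (-1.68 to -4.08), Epcam (1.12 to -0.67) and Cdh1 (6.54 to 5.90). That of Esrp1 was higher (3.96 to 4.32). The fibroblast mean was 0.80 to 1.15 in WT and -0.07 to 0.24 in Keap1-/-, and the mean of 4 smooth muscle genes (Acta2, Myh11, Cnn1 and Tagln) was 3.76 to 4.30 and 2.17 to 3.10. The basal squamous mean overlapped (3.08 to 3.54 in WT, 3.34 to 3.75 in Keap1-/-), as did that of the suprabasal markers (4.22 to 4.73 and 3.43 to 4.56). Among the suprabasal markers the group means of Ivl (1.42 to 0.44), Krt4 (5.89 to 5.24) and Sprr3 (5.67 to 5.56) were lower in Keap1-/-. That of Krt13 was higher (4.65 to 5.16). Their part in the desmosome values was not tested.

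In Nrf2-/-Keap1-/- esophagi, which lack both proteins, 0 of 9 desmosome genes were called against WT. In Nrf2-/-Keap1-/- against Keap1-/- esophagi, 5 of 9 genes were called, Dsg2 as higher and Dsc1, Dsp, Pkp3 and Jup as lower, beside 33.3% of all genes (18.2% higher, 15.1% lower). This comparison and that of Keap1-/- with WT share the Keap1-/- arrays, so their values stand side by side and are not independent. Dsg2 was at 1.08, 1.26 and 1.03, higher than in Keap1-/- by 0.73 ± 0.16 (adjusted p = 0.00624), with no overlap (26.5% of all genes were higher in this way) and with a call in every run without a single array. Dsc1 was at 0.36, 3.27 and 0.94, lower by 3.50 ± 0.95 (adjusted p = 0.0164). Replicate 2 of the double mutant, at 3.27, overlapped the lowest Keap1-/- array at 2.99, and the call was kept in 2 of the 6 runs without a single array. Jup was at 1.69, 1.90 and 2.07 (-0.66 ± 0.18, adjusted p = 0.0161), Dsp at 3.60, 3.53 and 4.03 (-0.52 ± 0.17, adjusted p = 0.0378) and Pkp3 at 3.22, 3.17 and 3.41 (-0.84 ± 0.26, adjusted p = 0.0309). The groups did not overlap for these 3 genes, as for 22% of all genes in that direction. Jup kept its call in 3, Dsp in 2 and Pkp3 in 0 of the 6 runs without a single array. Whichever array was left out, the change of Pkp3 stayed between -0.91 and -0.80, with adjusted p values of limma between 0.0518 and 0.0888. The processed signals of the scanner software ended the calls of Dsc1 (-3.07, adjusted p = 0.127), Dsp (-0.32, adjusted p = 0.200) and Pkp3 (-0.72, adjusted p = 0.0537). Between 1 and 4 genes were called in those runs; the count was 1 without Keap1-/- replicate 2 or 3 or without replicate 1 of the double mutant, and 3 without replicate 2 or 3 of the double mutant.

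In the comparison of Nrf2-/-Keap1-/- with WT esophagi, 0 of the 9 genes and 0.43% of all genes were called. The changes ran from -0.15 for Pkp3 to 0.33 for Dsc1, and 0 of the 9 had an unadjusted p of 0.05 or lower in limma, against 3322 of all genes. Dsg1a was the most variable gene of this group, at 0.77, 4.17 and 2.99. In all 4 genotypes at P7 the F-test of limma called Dsg2, Dsc1, Dsp and Jup (4 of 9 genes, beside 33.8% of all genes). The count was 0 without Keap1-/- replicate 2 or 3 and 2 without Nrf2-/- P7 replicate 2.

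Loss of Nrf2 alone moved no desmosome gene past the threshold at P7. Of all genes 0.0157% were called, 0 of the 9 had an unadjusted p of 0.05 or lower (2039 of all genes had), and the median change of the 9 was -0.11 (log2). The largest difference was that of Dsg1a, at 2.62, 2.37 and 0.34 in Nrf2-/- and at 2.19, 2.89 and 2.38 in WT (-0.71, adjusted p = 0.809), and the low value was that of Nrf2-/- replicate 3. The same replicate was the lowest for Dsc1, at 0.10 after 2.42 and 0.62 on the other 2 arrays.

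In adult epithelium, 0 of 10 genes were called between Nrf2-/- and WT, beside 0.499% of all genes, and 4 of the 10 had an unadjusted p of 0.05 or lower (3044 of all genes had). Dsg3 was at 3.68, 3.40 and 3.38 in Nrf2-/- and at 2.39, 1.73 and 3.28 in WT, and Dsc3 at 1.87, 2.20 and 2.12 against 0.90, 0.79 and 1.84. In both genes the Nrf2-/- arrays were above all WT arrays, and the nearest WT array was replicate 3, which shared its scan with Nrf2-/- replicates 1 and 2. The changes were 1.02 for Dsg3 (adjusted p = 0.214) and 0.89 for Dsc3 (adjusted p = 0.183). Within that scan they were 0.26 and 0.20, whereas WT replicate 3 was above the other WT adults by 1.22 and 0.99. The 0.499% of all genes belongs to the fit of all adult arrays, and the share without WT adult replicate 3 is not given here. Without WT adult replicate 3, Dsg3 (1.42, adjusted p = 0.0444), Dsc3 (1.22, adjusted p = 0.0286) and Dsc1 (-0.77, adjusted p = 0.0498) were called. In that setting the WT and Nrf2-/- adults shared no scan, so genotype and scan cannot be told apart. Dsc1 was at 6.10, 6.05 and 6.20 in Nrf2-/- and at 6.80, 6.97 and 6.54 in WT (-0.66, adjusted p = 0.102; -0.47 within the scan), and Pkp3 at 4.18, 3.89 and 4.13 against 4.45, 4.56 and 4.50 (-0.44, adjusted p = 0.163; -0.47 within the scan), and with median centring these changes turned to 0.062 and 0.33. Non-overlap in either direction was seen in 22.7% of all genes. The skeletal muscle mean was 1.57 to 2.70 in Nrf2-/- and 0.43 to 1.69 in WT adults, and the blood cell mean was 1.44 to 1.56 and 0.78 to 1.09, with no overlap. Their part in these values was not tested. The effect of Nrf2 loss did not pass the test of a difference between adults and P7 for any of the 10 genes (0.098% of all genes did), the largest difference being 1.16 for Dsg3 (adjusted p = 0.344). Without WT adult replicate 3, Dsc3 alone of the 10 genes passed it (1.24, adjusted p = 0.0298), again with no scan shared between the WT and Nrf2-/- adults. The share of all genes that passed in that setting is not given here either.

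Among themselves the 10 genes fell into patterns over the 27 arrays, given as a description because the arrays share groups and stages. Dsp, Jup, Pkp3 and Dsc2 ran closely together, with Pearson's r of 0.91 to 0.97 for their pairs, and Pkp1 followed Dsc2 at 0.95. Over the 12 arrays of P7 the pairs of Dsp, Jup and Pkp3 stood at 0.73 to 0.88. There Dsc2 was at -0.01 with Dsp, -0.03 with Pkp3, -0.17 with Jup and 0.31 with Pkp1. Dsc1 and Dsg1a ran together at 0.93 over all arrays and at 0.74 over the 12 arrays of P7. Dsg2 stood alone: over all arrays its r with Jup was -0.08, and over the 12 arrays of P7, which hold the Keap1-/- samples, it was -0.93. Searched over 18039 genes on the 27 arrays, the genes most like each member by r were Aox4 (0.988) for Dsc1, S100a14 (0.993) and Tgm1 (0.987), a crosslinking enzyme of the squamous cell envelope, for Pkp1, Tmem40 (0.985) and Zfp750 (0.984), an epidermal transcription factor, for Dsc2, and Fam57a (0.980) and Klk14 (0.979), a kallikrein protease, for Dsg1a. For Dsp they were Prom2 (0.983) and 2610528J11Rik (0.983), for Jup Dennd2c (0.983), for Pkp3 Sh3rf2 (0.980), for Dsc3 Vmn1r-ps103 (0.964), for Dsg3 Fam187b (0.952) and for Dsg2 Gm7455 (0.882) and Capsl (0.878).

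Other genes of the desmosome and of its cornified form, the corneodesmosome, were read from a fixed list of 9. From E11.5 to P7, 4 of the 7 that could be tested rose, from E15.5 to P0 3 of 7, and from P0 to P7 1 of 7; from P7 to adult 5 of 8 rose and 1 fell. Over all genes 16.8%, 11.3% and 1.47% were called higher in the first 3 of these comparisons, and 43% in either direction from P7 to adult. Perp, a membrane protein needed for desmosome assembly, was at 0.42, 1.09 and 3.59 at E11.5 and at 4.90, 5.98 and 5.33 at P7 (3.70, adjusted p = 0.0100). Ppl and Evpl, plakins of the cornified envelope, rose by 3.04 (adjusted p = 0.00296) and 1.49 (adjusted p = 0.0143), and Cdsn, the adhesive protein of corneodesmosomes, rose by 2.18 (adjusted p = 0.000525). In Keap1-/- esophagi 2 of 7 were higher and 1 was lower than in WT, beside 33.3% of all genes called. Dsg1b, the neighbouring Dsg1 copy, was at 1.96, 2.75 and 3.04 in Keap1-/-, at 0.25, 0.29 and 0.23 in WT and at 0.12, 0.66 and 0.52 in the double mutant. It was higher in Keap1-/- than in WT by 2.32 (adjusted p = 6.03e-05) and lower in the double mutant than in Keap1-/- by 2.15 on the log2 scale (adjusted p = 0.000108), whereas Dsg1a was not called in either comparison. Dsg1 copies are close in sequence, and whether a probe takes signal from more than 1 of them was not tested. Cdsn was at 2.44, 3.50 and 3.75 in Keap1-/- against 0.65, 1.66 and 1.00 in WT (2.13, adjusted p = 0.00590), and Pkp2, the plakophilin of simple epithelia and heart, at -3.99, -4.12 and -4.13 against -1.50, -2.60 and -3.00 (-1.71, adjusted p = 0.00976). Pkp2 was lower in adults than at P7 too (-2.55, adjusted p = 0.00135), while Dsg1b (3.03), Cdsn (2.44), Perp (1.63), Ppl (0.87) and Dsg1c (0.66) were higher. Dsg4 was not above background in any group.

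**Figure D5:**
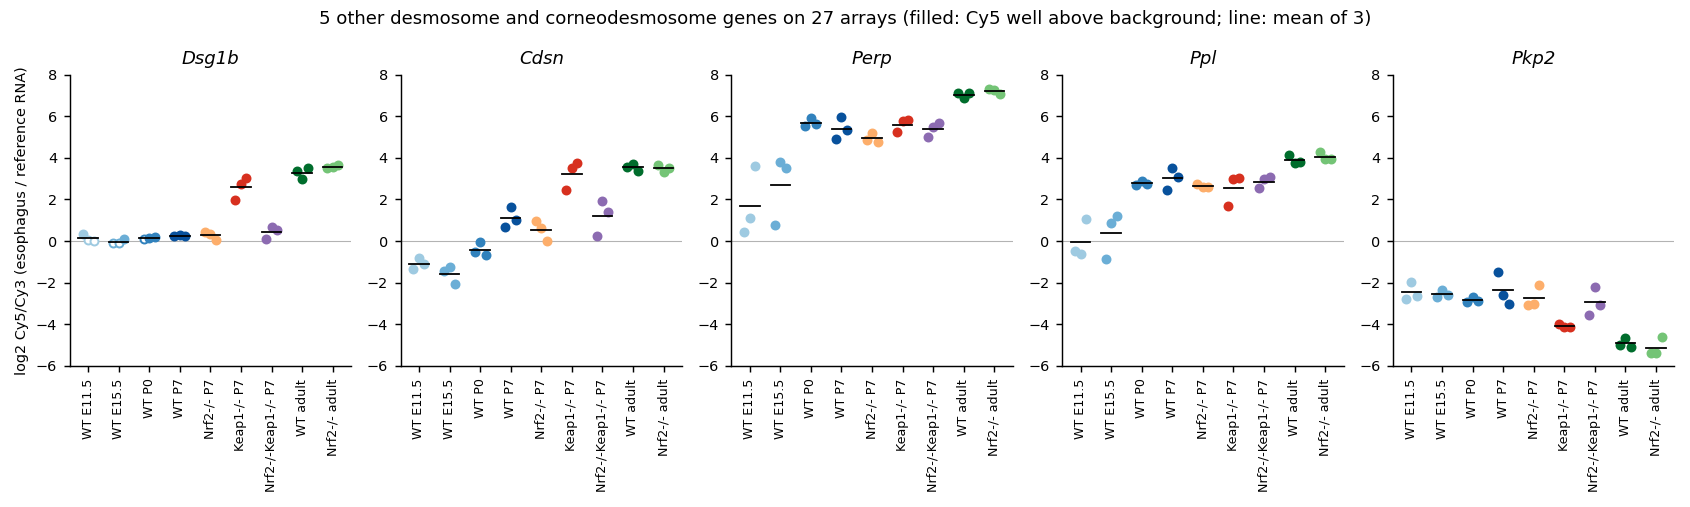
Level (log2 ratio of Cy5 to Cy3) of 5 further desmosome and corneodesmosome genes on every array, 1 point per array, open where not well above background, with the mean of 3 as a line. Dsg1b and Cdsn are raised in Keap1-/- esophagi toward their adult level and low again in the double mutant, Pkp2 is lowest in Keap1-/- and adults, and Perp and Ppl step up at birth.

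Genes that desmosomes depend on or sit beside were read from 4 more fixed lists. Of 14 keratins, the filaments that Dsp anchors, 9 rose from E11.5 to P7 and 0 fell, beside 16.8% of all genes called higher. In Keap1-/- esophagi Krt14 (0.98, adjusted p = 0.00609) and Krt16 (1.66, adjusted p = 0.000561) were higher, while the simple-epithelial keratins Krt8 (-4.11), Krt18 (-2.41), Krt19 (-6.37) and Krt7 (-4.92) were lower, 6 of 14 in all beside 33.3% of all genes. Krt19 was at 2.57, 2.60 and 2.43 in WT at P7, at -4.10, -3.71 and -3.69 in Keap1-/-, and between 2.89 and 3.09 in the double mutant, so its P7 groups parted in the same direction as those of Dsg2. In WT adults this likeness ended, with Krt19 at -3.92, -3.69 and -3.96 and Dsg2 at 0.82, 0.85 and 1.08. From P7 to adult 1 of the 14 keratins was called higher and 5 lower, beside 43% of all genes called in either direction. Of 10 adherens junction genes, 5 rose from E11.5 to P7, Cdh1 (E-cadherin) by 2.02 (adjusted p = 0.0109), and Cdh2 (N-cadherin) fell, 6 of 10 beside 30.2% of all genes. In Keap1-/- esophagi Cdh1 (-0.64, adjusted p = 0.0183), Ctnna1 (-0.47) and Vcl (-0.59) were lower and Pvrl1 (0.57) was higher, 4 of 10 and near the 33.3% of all genes. Of 10 transcription factors known from squamous or epithelial-mesenchymal control, 9 were on the array. From E15.5 to P0, 2 of the 9 were called, both higher, beside 11.3% of all genes called higher. From P7 to adult 5 were higher and 2 lower, beside 43% of all genes called in either direction. Among them Grhl1, a grainyhead-like factor known to act on desmosomal cadherin genes, rose by 3.32 from E15.5 to P0 (adjusted p = 0.00458). It rose by 2.26 from P7 to adult (adjusted p = 0.000630). Grhl1 did not pass in Keap1-/- esophagi, where Ovol1 (1.36) and Klf4 (0.82) were higher and Zeb1 (-0.95) and Zeb2 (-0.87) lower. These were 4 of 9 in all, beside 33.3% of all genes. Of 6 proteases and inhibitors that govern shedding of corneodesmosomes, 4 could be tested from E11.5 to P7 and all 4 rose (16.8% of all genes did), Spink5, the protease inhibitor, by 6.76 (adjusted p = 4.34e-08). In Keap1-/- esophagi Klk6 (2.69, adjusted p = 0.0156) and Klk8 (1.00, adjusted p = 0.0149) were higher, 2 of 6 beside 15.4% of all genes called higher.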

How the data were processed

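The files deposited by the authors hold, for every spot, mean and local background intensities of Cy5 and Cy3 before subtraction, and processed intensities of Agilent Feature Extraction (9.1 per the labels, 10.5.1.1 and 10.7.3.1 per the file headers). The value table deposited by the authors holds log10 ratios, Cy5 over Cy3. The methods name another scanner and program. Depth does not apply to arrays, and their number limits precision.

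Here mean intensities were corrected by normexp (offset 50) and normalized by loess within arrays. Outlier-flagged spots were kept, since they fell on Dsp, Pkp1 and Pkp3 on 20, 17 and 16 arrays. Where local background exceeded 5 times the array's median, spots were dropped (0 spots of these genes). Log2 ratios of spots, then probes, were averaged. Names followed the newer annotation, except that probes carrying a symbol in either version were kept (9421 probes, 22.9%, differ). Testing required a probe whose Cy5 signal stood well above background on 3 or more arrays of the fit, and 2 values per group. Tests were run with limma 3.58.1 (R 4.3.3, statmod 1.5.0; moderated t- and F-test, Benjamini-Hochberg). Fits held the 12 WT arrays up to P7, the 12 P7 arrays, the P7 and adult WT arrays, the adult arrays, or, for the difference of Nrf2 effects, 12 arrays of both ages. Fold bounds used intensities scaled between arrays (Aquantile) and are open to dye bias. The scripts were tested on simulated data. Figures used Python 3.11.15 and matplotlib 3.10.9.

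All 10 genes were described in every comparison. Further genes were read by fixed lists, and not every gene called in a list is named. These genes and lists were chosen with earlier results of these data known. The alternatives are given with their effect at the end of the document. The significance analysis named in the methods was not run here.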

Additional observations from a re-analysis of the deposited data

How the results depend on the processing

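Of the counts of desmosome genes called, these moved by over 1.5 times. From E11.5 to E15.5 the count was 0, and 7 without E11.5 replicate 3 and E15.5 replicate 1 together, arrays singled out from these same data. From E15.5 to P0 it was 4, and 0 with each spot's own local background (added once the data had been seen). From P0 to P7 it was 2, then 1 with processed signals, deposited ratios or the scan or slide as a block, and 0 with median centring, a filter on both channels or all 27 arrays in 1 fit. From P7 to adult it was 7, then 4 with median centring, scale normalization or the filter on both channels, and 2 with the own local background. In Keap1-/- against WT it was 4, and 2 with all arrays in 1 fit. In the double mutant against Keap1-/- it was 5, then 3 without outlier-flagged spots and 2 with processed signals, deposited ratios or all arrays. In Nrf2-/- adults it was 0, then 1 with scale normalization and 2 with all arrays or the own local background, which gave 2 in place of 0 for the difference between ages. Over the 4 genotypes it was 4, and 2 with processed signals, deposited ratios or all arrays. Called values that reversed were Dsc2 from P7 to adult (-0.17 with scale normalization, -1.33 with the own local background) and, in the latter setting, Dsp (-0.20) and Jup (-0.061). Of values that were not called, Dsg3 from P7 to adult (-0.66) and Dsc1 in Nrf2-/- adults (0.89) also changed sign with the own local background, Dsg1a in Keap1-/- (-0.60) with processed signals and Pkp3 in Nrf2-/- adults (0.33) with median centring. The cause was not tested. Numbers of all genes called moved too. From P7 to adult there were 7735, and 4321 with median centring. From P0 to P7 there were 478, then 367 with median centring, 388 with processed signals and 401 with deposited ratios. In the double mutant against Keap1-/- there were 6353, then 5937 with processed signals and 5966 with deposited ratios. For most other settings of this paragraph the number is not given here.

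Without single arrays the counts ran from 1 to 5 (E15.5 to P0), 0 to 1 (P0 to P7), 5 to 8 (E11.5 to P7), 4 to 8 (P7 to adult), 2 to 5 (Keap1-/-), 1 to 4 (double mutant against Keap1-/-), 0 to 3 (Nrf2-/- adults), 0 to 1 (difference between ages), 6 to 9 (time points) and 0 to 5 (genotypes), and stayed at 0 from E11.5 to E15.5, for Nrf2-/- at P7 and for the double mutant against WT.

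Deviations of samples with the same replicate number correlated at -0.45 to 0.64 over the WT time points (median 0.10, against -0.05 for other pairs), and not every pair passed 0.1, so the numbers were not taken to pair samples. With the number as a block, 6 genes were called from E15.5 to P0, 8 from E11.5 to P7, 6 from P7 to adult, 4 in Keap1-/- and 5 in the double mutant against Keap1-/-; among all genes, 21 in place of 90 were called in Nrf2-/- adults. Median centring moved the median of all genes by 0.132 in Keap1-/-, 0.380 in Nrf2-/- adults and 0.287 in the difference between ages, and processed signals by 0.125 from P7 to adult, -0.124 in Nrf2-/- adults and -0.110 in the difference between ages; changes are relative to these shifts. Of called genes 57.2% were higher from E15.5 to P0 against 40.7% with median centring, 60.5% against 43.9% from P0 to P7 (49.2% with processed signals), 55.8% against 36.4% from E11.5 to P7, 46.2% against 66.0% in Keap1-/-, 73.2% against 88.7% in the double mutant, 53.3% against 85% in Nrf2-/- adults (28.6% with processed signals) and 68.4% against 94.1% (42.9%) in the difference between ages. Of 2070 values of single genes under alternatives, 4 called values reversed, 105 lost and 44 gained a call, and 1917 kept their side of the threshold, 169 of them uncalled values that changed sign.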
